A study of Arabidopsis thaliana with 33 samples.

Results

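The genes described here are 3 enzymes of starch synthesis and breakdown, AMY1, PWD and APL3, out of 6852 genes with a single-gene probe set in the same table. They were chosen by symbol with earlier results of these data known. AMY1 (AT4G25000) had stood out for its difference between CO2 concentrations and PWD (AT5G26570) for its difference between midnight and midday, so those values are given below as descriptions with no test. The comparison behind the choice of APL3 (AT4G39210) is not recorded, so its CO2, nitrogen and time differences are given as descriptions too. Only changes of its differences between conditions are tested. For each gene such changes are built from the differences themselves, so these tests may not be free of the choice. The symbol PWD stands on 2 probe sets, and the second belongs to another locus, AT4G24450, which the gene table also lists under the synonym ATGWD2. PWD below means AT5G26570, and AT4G24450 is given separately.

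Leaf RNA of Arabidopsis thaliana Col-0 was hybridised to Affymetrix arrays in 33 samples. Plants grew at elevated (750 ppm) or ambient (370 ppm) CO2, each with limiting (0.25 mM) or ample (6 mM) NH4NO3. All had 10 h of light at 250 µmol of photons and 14 h of dark, with 21 °C by day and 18 °C by night. On day 35 the youngest leaves that had fully expanded were harvested at midnight or midday. Midnight and midday leaves thus also differed in light and temperature, which cannot be told apart from time of day. Of the 8 groups, elevated ample midday had 3 arrays, elevated ample midnight and ambient ample midnight had 5 each, and the other 5 groups had 4 each. Whether replicates came from single plants, pools or separate chambers is not in the labels, so the p-values reflect only how far these 33 arrays spread, which may be technical. In whole leaves, fewer cells of a type and less RNA per cell cannot be told apart.

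A leaf stores part of its daytime carbon as starch in the chloroplast and breaks it down at night to make sugar. ADP-glucose pyrophosphorylase makes the activated glucose from which starch is built, and APL3 is one of its large, regulatory subunits, known as a sugar-inducible one. At night phosphate groups are put on the glucan chains at the granule surface, first by a glucan water dikinase and then by PWD, the phosphoglucan water dikinase, which opens the granule to beta-amylases. AMY1 is an alpha-amylase that carries a secretion signal. It is known to lie outside the chloroplast and to be induced in senescing and stressed leaves, and leaf starch breakdown does not need it.

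Values are log2 levels relative to the median of each array, so 1 unit is a factor of 2 and a level at 0 equals the array's median probe set. Probe sets differ in their response, so these levels order no genes by transcript amount, and a percentile describes only how bright a probe set was. That of AMY1 was dim: its mean over all arrays exceeded 6.8% of the tested probe sets, against 51.2% for APL3 and 80.1% for PWD. Its spread within groups was also the widest, with a pooled SD of 0.71, against 0.371 for APL3 and 0.3 for PWD. Of the leaf mesophyll markers 4 of 8 were measured, and their summed log2 level was 15.8 to 20.66 in midnight arrays and 22.64 to 25.11 in midday arrays, so both ranges lay far above the array median and did not overlap. None of the root, floral, phloem or xylem markers was measured, so RNA from those tissues was not assessed, and FAMA, the 1 measured guard cell marker of 5, lay below the array median. Ambient ample midnight replicate 4 stood apart clearly, and elevated limiting midnight replicate 1 only slightly by its correlation. Their median correlation with their own group was 0.8937 and 0.9406 (0.9426 to 0.9844 in the other arrays), and in the first the 3′ control probe sets exceeded the 5′ ones by 4.406 on the log2 scale (1.457 to 2.353 in the others). Midnight and midday arrays also differed in the 37 probe sets for spiked-in control transcripts, with midnight minus midday log2 differences of -0.99 to 0.75 and a median of -0.18.

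AMY1, the alpha-amylase, lay higher at elevated CO2 in the means of all 4 conditions. At ample nitrogen and midday it was at -1.48, -1.63 and 0.15 in elevated CO2, against -3.52, -2.7, -2.29 and -3.76 in ambient CO2. All elevated arrays lay above all ambient arrays there, as they did for 6.51% of all probe sets, and elevated replicate 3 was far above the other two. With limiting nitrogen at midday AMY1 was at -3.11, -1.13, -1.07 and -1.93 in elevated CO2, against -2.59, -1.08, -2.71 and -2.27 in ambient CO2. The groups overlapped, with elevated replicate 1 the lowest array of both. In midnight leaves with ample nitrogen the values were -1.54, -0.64, -1.48, -1.88 and -2.8 in elevated CO2, against -3.32, -1.92, -2.72, -2.46 and -2.82 in ambient CO2. Elevated replicate 5 lay among the ambient arrays and the other elevated arrays lay above them. In midnight leaves with limiting nitrogen they were -1.23, -1.64, -1.91 and -0.81 in elevated CO2, against -1.99, -1.99, -2.71 and -2.89 in ambient CO2. All elevated arrays lay above all ambient arrays, as for 3.39% of all probe sets, and the gap between the groups was narrow.

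**Figure D1:**
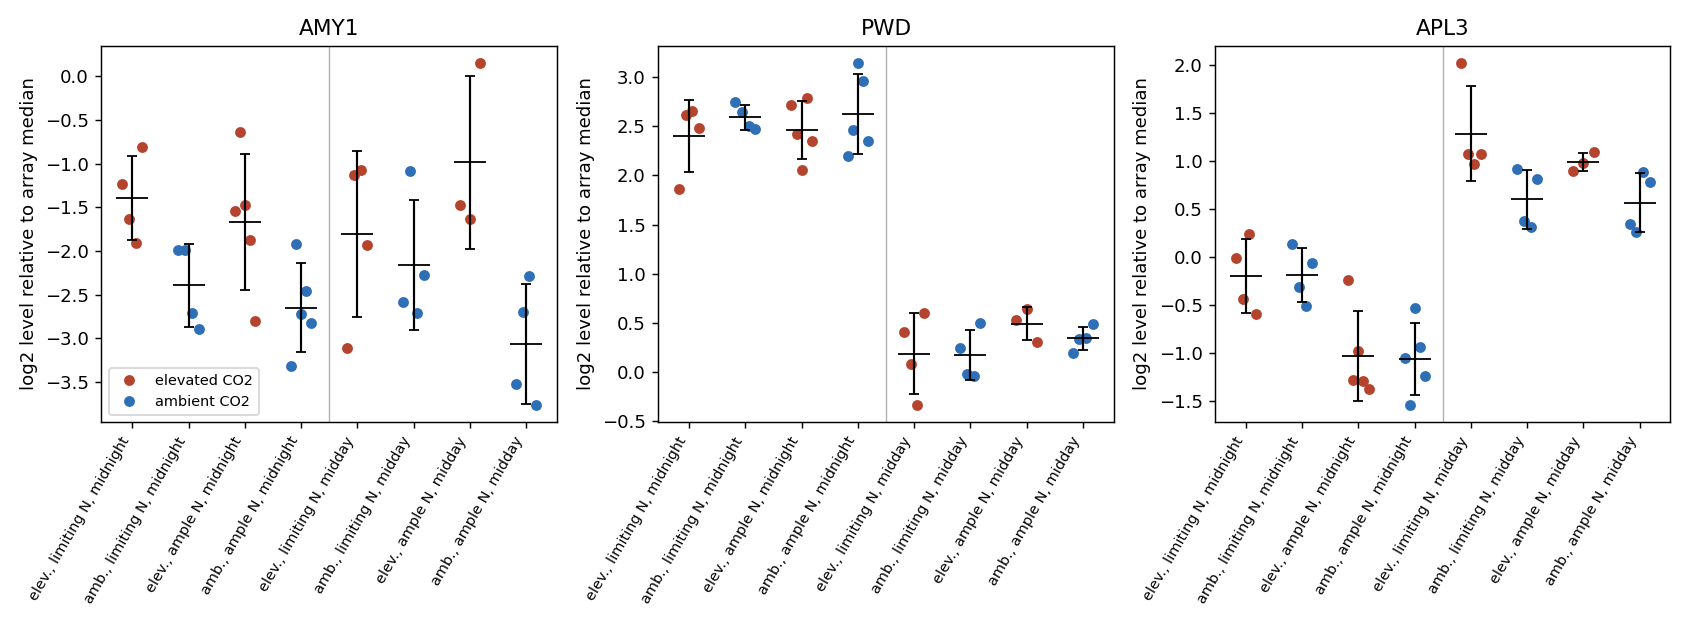
Log2 level relative to the array median (y axis) of AMY1, PWD and APL3 in each array (points), by group (x axis), with the mean and SD of each group in black, elevated CO2 in red and ambient CO2 in blue. AMY1 means are higher in elevated than in ambient CO2 in each condition with wide spread, the lowest PWD array at midnight (1.86) lies above the highest at midday (0.64), and the highest APL3 array at midnight (0.24) lies just below the lowest at midday (0.26).

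The resulting CO2 differences of AMY1 were, on the log2 scale, 0.35 (SE 0.462) at limiting nitrogen and midday, 2.08 (SE 0.499) at ample nitrogen and midday, 1.00 (SE 0.462) at limiting nitrogen and midnight and 0.98 (SE 0.413) at ample nitrogen and midnight. Their mean, known when the gene was chosen, was 1.1 (SE 0.23, 2.15-fold), and 71 of the 12772 tested probe sets lay above it. In that mean comparison limma called 21.3% of the tested probe sets, 8.46% as higher and 12.9% as lower at elevated CO2. Without the 2 arrays that stand apart the mean was 1.1 as well. The difference at ample nitrogen and midday was 1.51 without elevated replicate 3 and up to 2.41 without another array.

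Whether nitrogen supply changed the CO2 response of AMY1 was tested directly. The contrasts are built from CO2 differences of the gene, so these tests may not be free of its choice. At midday the CO2 difference at limiting nitrogen minus that at ample nitrogen was -1.73 on the log2 scale (SE 0.68, 95% interval -3.12 to -0.34), and limma's adjusted p over all probe sets was 1. At midnight the same contrast was 0.02 (SE 0.62, adjusted p = 1), and averaged over both times it was -0.86 (SE 0.46, adjusted p = 0.999). The interval at midday lies below 0 on its own, but the call is made over the whole table. There limma called 0% of probe sets in each of the 3 contrasts, with 298 at midday, 347 at midnight and 275 for the average passing an unadjusted p under 0.05. The CO2 response of AMY1 also did not pass for a difference between midnight and midday (-0.23, SE 0.46, adjusted p = 0.979).

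Nitrogen and time of day gave no passing difference in AMY1. Limiting minus ample nitrogen was -0.83 (SE 0.499) in elevated CO2 at midday and 0.91 (SE 0.462) in ambient CO2 at midday, of opposite sign. It was 0.27 (SE 0.438) and 0.25 (SE 0.438) in elevated and ambient CO2 at midnight. The mean was 0.15 (SE 0.23, 95% interval -0.32 to 0.62, limma adjusted p = 0.835). Midnight minus midday averaged -0.02 (SE 0.23, 95% interval -0.49 to 0.45, adjusted p = 0.942), in a comparison where 64.5% of all probe sets were called. The sign of this small mean changed with the processing, with values given further on.

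PWD, the dikinase that adds phosphate to starch already phosphorylated, lay higher at midnight than at midday in every combination of CO2 and nitrogen. In elevated CO2 with limiting nitrogen it was at 1.86, 2.61, 2.65 and 2.48 at midnight, against 0.41, 0.08, -0.33 and 0.60 at midday. In ambient CO2 with limiting nitrogen it was at 2.74, 2.64, 2.50 and 2.47 at midnight, against 0.25, -0.02, -0.04 and 0.50 at midday. All midnight arrays lay far above all midday arrays in both. In elevated CO2 with ample nitrogen it was at 2.71, 2.42, 2.05, 2.78 and 2.35 at midnight, against 0.53, 0.64 and 0.31 at midday. In ambient CO2 with ample nitrogen it was at 2.2, 2.46, 3.14, 2.96 and 2.35 at midnight, against 0.20, 0.34, 0.35 and 0.49 at midday. Again no arrays overlapped. Of all probe sets, the share whose midnight arrays all lay above the midday arrays was 14.1% and 19.6% in elevated and ambient CO2 with limiting nitrogen, and 17.4% and 14.5% in elevated and ambient CO2 with ample nitrogen.

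The midnight minus midday differences of PWD were 2.21 (SE 0.208) in elevated CO2 with limiting nitrogen, 2.41 (SE 0.208) in ambient CO2 with limiting nitrogen, 1.97 (SE 0.215) in elevated CO2 with ample nitrogen and 2.28 (SE 0.197) in ambient CO2 with ample nitrogen. The mean was 2.22 (SE 0.104, 4.65-fold), and 60 of the 12772 probe sets lay above it. The spiked-in controls differed by at most 0.99 in size, and their part in the results over time was not tested. The summed mesophyll markers were lower in every midnight array than in every midday array. Their mean midnight minus midday differences were uneven, -2.76 for LHCB4.2, -1.23 for PSAN, -0.55 for RCA and -0.42 for PRK. The part of these markers in the results over time was not tested. Without the 2 arrays that stand apart the PWD mean was 2.24. Elevated limiting midnight replicate 1, at 1.86, was the lowest midnight array, and without both arrays the difference in elevated CO2 with limiting nitrogen was 2.39.

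Neither CO2 nor nitrogen gave a passing difference in PWD, comparisons its choice did not use. Elevated minus ambient CO2 was 0.02 (SE 0.208) at limiting nitrogen and midday, 0.15 (SE 0.225) at ample nitrogen and midday, -0.19 (SE 0.208) at limiting nitrogen and midnight and -0.16 (SE 0.186) at ample nitrogen and midnight. The mean was -0.05 (SE 0.104, 95% interval -0.26 to 0.17, limma adjusted p = 0.789). Limiting minus ample nitrogen averaged -0.14 (SE 0.104, 95% interval -0.35 to 0.07, adjusted p = 0.589), in a comparison where 1.41% of all probe sets were called. Both intervals are narrow beside the difference between midnight and midday. The difference between midnight and midday itself did not pass for a change with CO2 (-0.26, SE 0.207, adjusted p = 0.925) or with nitrogen (0.19, SE 0.207, adjusted p = 0.963).

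**Figure D2:**
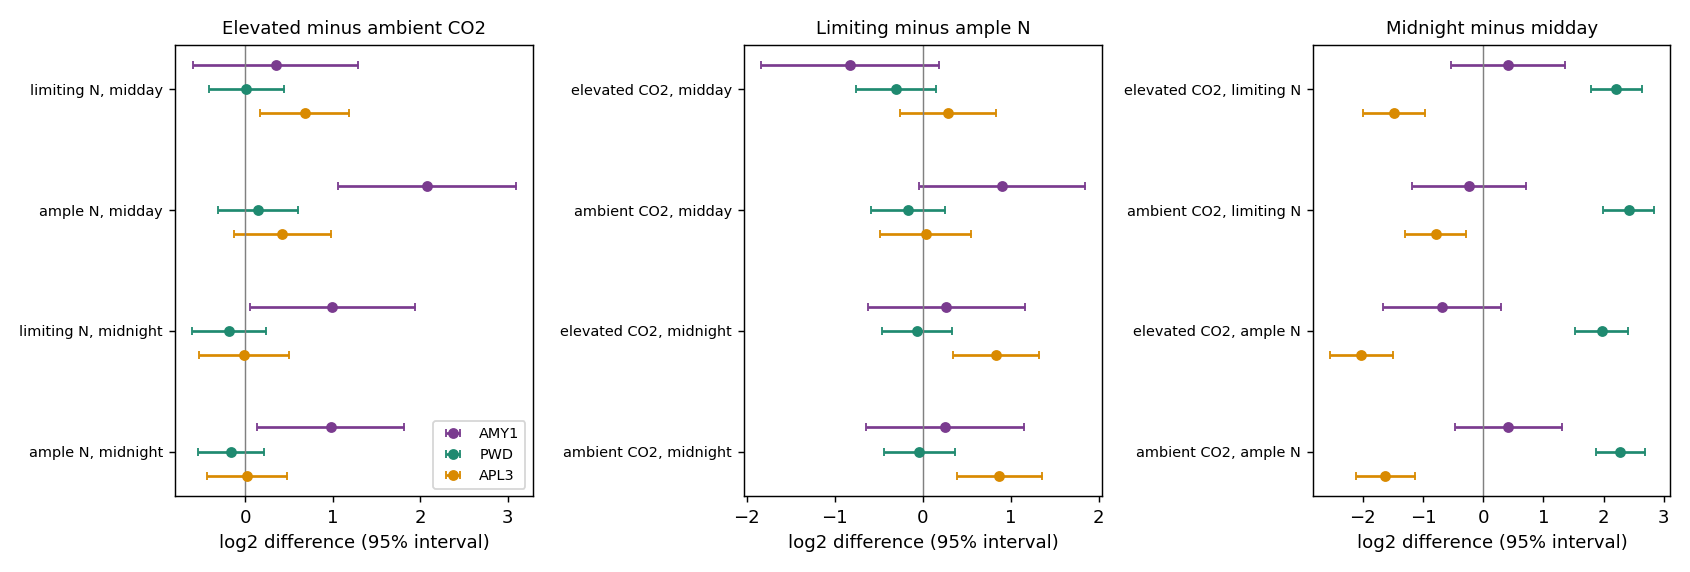
Log2 differences (x axis) with 95% intervals from the limma fit for AMY1, PWD and APL3 in each condition (y axis), for elevated minus ambient CO2, limiting minus ample nitrogen and midnight minus midday. PWD lies at 1.97 to 2.41 and APL3 at -2.02 to -0.79 in the right panel, while AMY1 intervals there include 0.

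The second locus under the PWD symbol, AT4G24450, had no passing mean difference. Its means ran from -1.49 ± 0.43 (SD, n = 4) in ambient limiting midday leaves to -0.53 ± 0.34 (SD, n = 4) in elevated limiting midnight leaves, and neighbouring groups in the order of the 8 means overlapped throughout. Midnight minus midday averaged 0.27 (SE 0.123, limma adjusted p = 0.052), just outside the threshold, and it passed under 4 other settings given further on. Its mean CO2 difference was 0.23 (SE 0.123, adjusted p = 0.192) and its mean nitrogen difference 0.29 (SE 0.123, adjusted p = 0.29).

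APL3, the pyrophosphorylase subunit, ran the opposite way to PWD over the day. In elevated CO2 with limiting nitrogen it was at -0.01, -0.44, 0.24 and -0.59 at midnight, against 2.02, 1.07, 0.97 and 1.07 at midday. In ambient CO2 with limiting nitrogen it was at 0.13, -0.31, -0.51 and -0.06 at midnight, against 0.92, 0.37, 0.31 and 0.81 at midday. The midnight arrays all lay below the midday arrays in both, with a small gap in ambient CO2. In elevated CO2 with ample nitrogen it was at -0.24, -1.28, -0.98, -1.29 and -1.38 at midnight, against 0.90, 0.98 and 1.09 at midday. In ambient CO2 with ample nitrogen it was at -1.05, -1.54, -0.53, -0.94 and -1.24 at midnight, against 0.34, 0.26, 0.88 and 0.78 at midday. Again all midnight arrays lay below, and over all arrays the highest at midnight lay just under the lowest at midday. Such a separation downward held for 16.4% and 21.1% of all probe sets in elevated and ambient CO2 with limiting nitrogen, and for 18.4% and 14.1% in elevated and ambient CO2 with ample nitrogen.

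The midnight minus midday differences of APL3 were -1.48 (SE 0.25) in elevated CO2 with limiting nitrogen, -0.79 (SE 0.25) in ambient CO2 with limiting nitrogen, -2.02 (SE 0.259) in elevated CO2 with ample nitrogen and -1.63 (SE 0.238) in ambient CO2 with ample nitrogen. Their mean was -1.48 (SE 0.125, 2.79-fold lower at midnight), and 361 of the 12772 probe sets lay below it. Without the 2 arrays that stand apart it was -1.50. The difference in ambient CO2 with limiting nitrogen (-0.79) lay within the range of the spiked-in controls (-0.99 to 0.75).

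The nitrogen difference of APL3 was larger in the midnight means than in the midday means. Limiting minus ample nitrogen was 0.83 (SE 0.238) in elevated CO2 and 0.87 (SE 0.238) in ambient CO2 at midnight, against 0.29 (SE 0.271) and 0.04 (SE 0.25) in elevated and ambient CO2 at midday. In ambient CO2 at midnight all limiting arrays lay above all ample arrays, as for 1% of all probe sets. The lowest limiting array there was at -0.51 and the highest ample one at -0.53, so the separation was slight. In elevated CO2 at midnight ample replicate 1 (-0.24) lay among the limiting arrays. The mean nitrogen difference was 0.51 (SE 0.125, 1.42-fold), and 64 probe sets lay above it. The nitrogen difference at midnight minus that at midday was 0.69 (SE 0.249, 95% interval 0.18 to 1.2), with a limma adjusted p = 0.549 over all probe sets, in a comparison where 0.102% of them were called. A change of the nitrogen difference with time therefore did not pass.

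The CO2 difference of APL3 was larger in the midday means than in the midnight means. Elevated minus ambient CO2 was 0.68 (SE 0.25) at limiting nitrogen and 0.42 (SE 0.271) at ample nitrogen at midday, against -0.02 (SE 0.25) and 0.02 (SE 0.224) at midnight. At midday all elevated arrays lay above all ambient arrays at each nitrogen supply, as for 2.66% of all probe sets at limiting and 6.51% at ample nitrogen. The lowest elevated midday array was at 0.90 with ample nitrogen, where the highest ambient one was at 0.88, so the separation there was slight. Elevated limiting midday replicate 1, at 2.02, raised the difference at limiting nitrogen, which was 0.43 without it. The mean CO2 difference was 0.28 (SE 0.125). The change of the CO2 difference between midnight and midday was -0.55 (SE 0.249, 95% interval -1.06 to -0.04, adjusted p = 0.869), and the CO2 by nitrogen contrast was 0.11 (SE 0.249, adjusted p = 0.999). Neither passed, and limma called 0% of probe sets for the CO2 by time contrast (695 at an unadjusted p under 0.05).

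In the order of its 8 group means, APL3 started with elevated limiting midday (1.28 ± 0.49, SD, n = 4), elevated ample midday (0.99 ± 0.10, SD, n = 3), ambient limiting midday (0.60 ± 0.31, SD, n = 4) and ambient ample midday (0.57 ± 0.31, SD, n = 4) and ended with the midnight groups. These were ambient limiting (-0.19 ± 0.28, SD, n = 4), elevated limiting (-0.20 ± 0.38, SD, n = 4), elevated ample (-1.04 ± 0.47, SD, n = 5) and ambient ample (-1.06 ± 0.37, SD, n = 5). Neighbours overlapped except across midday and midnight. For PWD the 4 midnight means ran from 2.40 ± 0.37 (SD, n = 4) in elevated limiting to 2.62 ± 0.41 (SD, n = 5) in ambient ample leaves, and the 4 midday means from 0.17 ± 0.26 (SD, n = 4) in ambient limiting to 0.49 ± 0.17 (SD, n = 3) in elevated ample leaves, with overlap within each time. For AMY1 the 4 elevated groups held the highest means, from -0.99 ± 0.99 (SD, n = 3) in ample midday to -1.81 ± 0.95 (SD, n = 4) in limiting midday leaves. The 4 ambient means ran from -2.16 ± 0.74 (SD, n = 4) in limiting midday to -3.07 ± 0.69 (SD, n = 4) in ample midday leaves, and every pair of neighbours in the order overlapped.

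Of 52 genes listed for starch synthesis, starch breakdown, and maltose use and plastid transport, 10 could be named on the array, 5 of 21 for synthesis, 5 of 22 for breakdown and 0 of 9 for maltose use and transport. The other measured synthesis genes were SBE2.2, a starch branching enzyme, PTST1, a carbohydrate-binding partner of granule-bound starch synthase, and PTST2 and PTST3, which act in granule initiation. The other measured genes on the breakdown list were AT4G24450, DPE1, the plastid disproportionating enzyme that recycles short glucan chains, and LESV, a glucan-binding protein of the starch granule. Their part in breakdown was not tested. Leaving aside AMY1, PWD and APL3, which were chosen with their values known, 7 starch genes were compared. The starch lists were also chosen with earlier results of these data known, so the calls and counts here and below only describe these genes. For the mean CO2 difference limma called 0 of the 7 (0 higher and 1 lower at an unadjusted p under 0.05), where it called 8.46% of all probe sets higher and 12.9% lower. The median of the 7 was -0.12, against -0.04 over all probe sets. For the mean nitrogen difference limma also called 0 of the 7 (1 higher and 0 lower at an unadjusted p under 0.05), where 0.579% of all probe sets were called higher and 0.83% lower. The median was 0.06, against -0.01 over all probe sets.

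Between midnight and midday 5 of the 7 were called, 1 higher and 4 lower at midnight, where 31.1% of all probe sets were called higher and 33.4% lower. DPE1 was higher at midnight by 0.75 (SE 0.123, limma adjusted p = 4.1e-06). PTST1 was lower at midnight, the log2 difference being -2.32 (SE 0.124, adjusted p = 1.75e-16), with means of -2.55 to -2.02 in the midnight groups and -0.13 to 0.43 in the midday groups. SBE2.2 was also lower, with a difference of -0.82 (SE 0.101, adjusted p = 2.72e-08), LESV with one of -0.95 (SE 0.103, adjusted p = 2.19e-09) and PTST3 with one of -0.43 (SE 0.105, adjusted p = 0.00076). PTST2 (0.18, SE 0.101, adjusted p = 0.122) and AT4G24450 did not pass. The differences of SBE2.2, LESV and PTST3 lay within the range of the spiked-in controls (-0.99 to 0.75). That of DPE1 lay at its upper end and that of PTST1 outside it. With 64.5% of all probe sets called in this comparison, the count says nothing particular about starch genes. The median of the 7 was -0.43 against -0.02 over all probe sets.

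**Figure D3:**
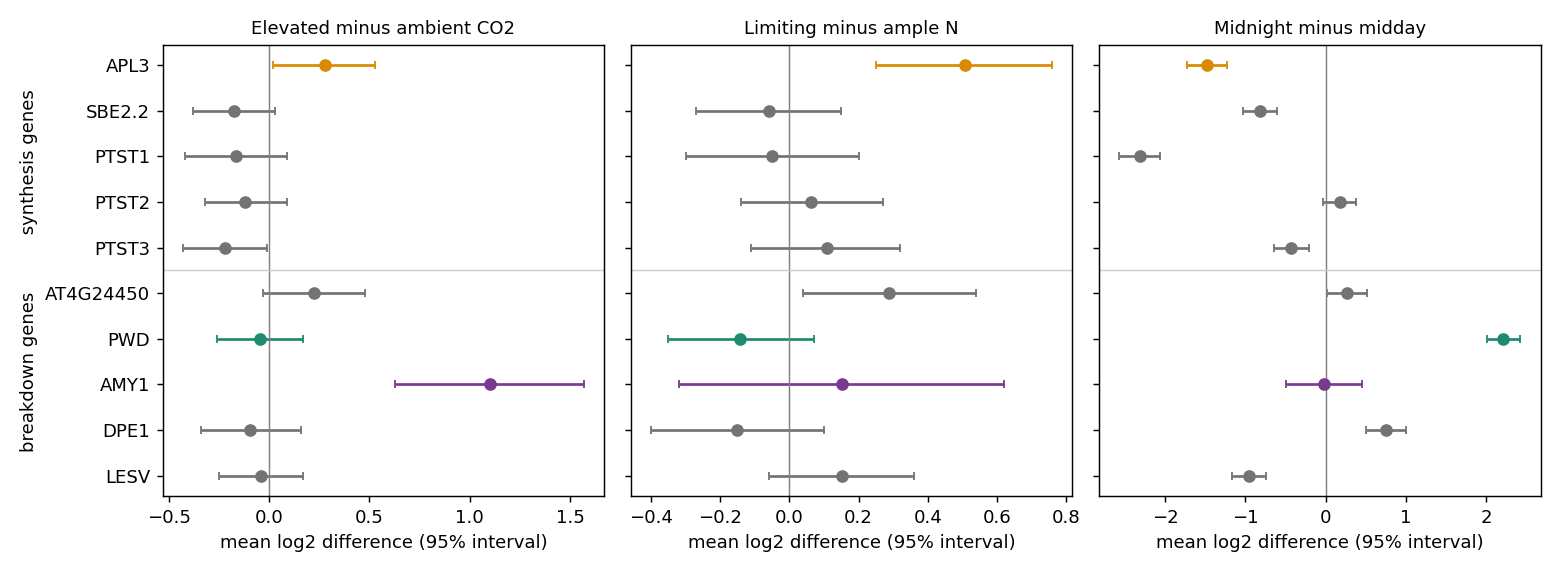
Mean log2 differences (x axis) with 95% intervals for the 10 measured starch genes (y axis), with the 3 chosen genes in colour. Genes of the synthesis list stand above the line and those of the breakdown list below. The panels show elevated minus ambient CO2, limiting minus ample nitrogen and midnight minus midday. AMY1 stands to the right in the CO2 panel (1.1), APL3 in the nitrogen panel (0.51), and the genes spread from -2.32 for PTST1 to 2.22 for PWD in the time panel.

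Over the 33 arrays PWD and APL3 correlated with r = -0.787, over arrays of both times of day, and with r = 0.387 in their deviations from the group means. AMY1 had r = -0.03 with PWD and r = 0.045 with APL3 in its values, and r = -0.218 with PWD and r = -0.239 with APL3 in its deviations. These values describe 33 arrays that share groups and normalization.

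The genes most like each member were found by Pearson correlation over the 33 arrays. For AMY1 they were CHI, a chitinase (r = 0.76), AT1G21520 (0.749), AT3G51440 (0.743) and AT4G23610 (0.715). In deviations from the group means, which leave out the differences between groups, they were WRKY53, a transcription factor of leaf senescence (0.668), DPL1, a sphingosine-phosphate lyase (0.662), BIK1, a kinase of immune signalling (0.654), and again CHI (0.635). Within the 16 elevated arrays AMY1 and CHI had r = 0.63, and within the 17 ambient arrays r = 0.50. AMY1 and WRKY53 had r = 0.35 in the elevated and r = 0.43 in the ambient arrays. CHI and WRKY53 were picked for their r over these same arrays, so these values are no separate support. They also pool midnight and midday arrays, between which WRKY53 differed by 1.94 on average. For PWD the values closest to it were those of SCPL49 (0.986), AT2G25730 (0.969), ASPGA1 (0.968) and TUB9 (0.968). Each of these was higher at midnight than at midday in every condition, as PWD was. Between those times 64.5% of all probe sets were called, so such r values largely reflect time of day. The closest deviations were those of ALDH11A3 (0.854), AT2G21380 (0.846), ALDH10A8 (0.846) and AT3G24190 (0.831). Likeness in deviations concerns only the spread within groups. In group means ALDH11A3, AT2G21380 and AT3G24190 were lower at midnight than at midday in every condition, opposite to PWD, while ALDH10A8 was higher. For APL3 the values closest to it were those of AT2G29670 (0.909), PME61 (0.906), UGT78D1 (0.891) and AT5G66420 (0.889). Each of these was lower at midnight than at midday in every condition, as APL3 was. The closest deviations were those of AT5G64550 (0.765), Cpn60beta3 (0.695), AT1G11090 (0.691) and AT5G41460 (0.679). In group means AT5G64550 was higher at midnight than at midday in every condition, opposite to APL3.

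Genes of leaf senescence, in which AMY1 is known to be induced, were also compared across CO2. Of the 10 listed, 3 were measured, and all 3 were called higher at elevated CO2 on average, as were 8.46% of all probe sets. The list was chosen with earlier results of these data known, so these calls and their count only describe the genes. WRKY53 was higher by 1.16 (SE 0.22, limma adjusted p = 0.00106), GAMMA-VPE, a vacuolar processing enzyme, by 0.51 (SE 0.157, adjusted p = 0.0199), and SAG101, a lipase-like protein, by 0.50 (SE 0.145, adjusted p = 0.0144). Their order over conditions was not that of AMY1 in each case. At midday the CO2 difference of GAMMA-VPE was 1.29 (SE 0.316) at limiting and 0.24 (SE 0.341) at ample nitrogen, and that of SAG101 0.68 (SE 0.291) at limiting and 0.40 (SE 0.314) at ample nitrogen, while AMY1 had its larger midday difference at ample nitrogen. WRKY53 had 0.45 (SE 0.441) at limiting and 1.43 (SE 0.477) at ample nitrogen. The summed level of the 3 genes ran from -0.19 to 3.20 in elevated against -1.52 to 0.13 in ambient leaves at limiting nitrogen and midday, and from -1.76 to 2.47 in elevated against -2.59 to -1.12 in ambient leaves with ample nitrogen at midday. In midnight arrays it ran from 1.94 to 5.2 in elevated against 1.2 to 2.19 in ambient leaves at limiting nitrogen, and from 1.64 to 3.37 in elevated against -1.98 to 2.19 in ambient leaves at ample nitrogen. WRKY53 and GAMMA-VPE were also called higher at midnight than at midday (1.94, SE 0.22, adjusted p = 5.3e-09, and 0.38, SE 0.157, adjusted p = 0.0356), and GAMMA-VPE higher at limiting than at ample nitrogen (0.91, SE 0.157, adjusted p = 0.00109), where AMY1 had no call. The part of these genes in the AMY1 result was not tested.

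**Figure D4:**
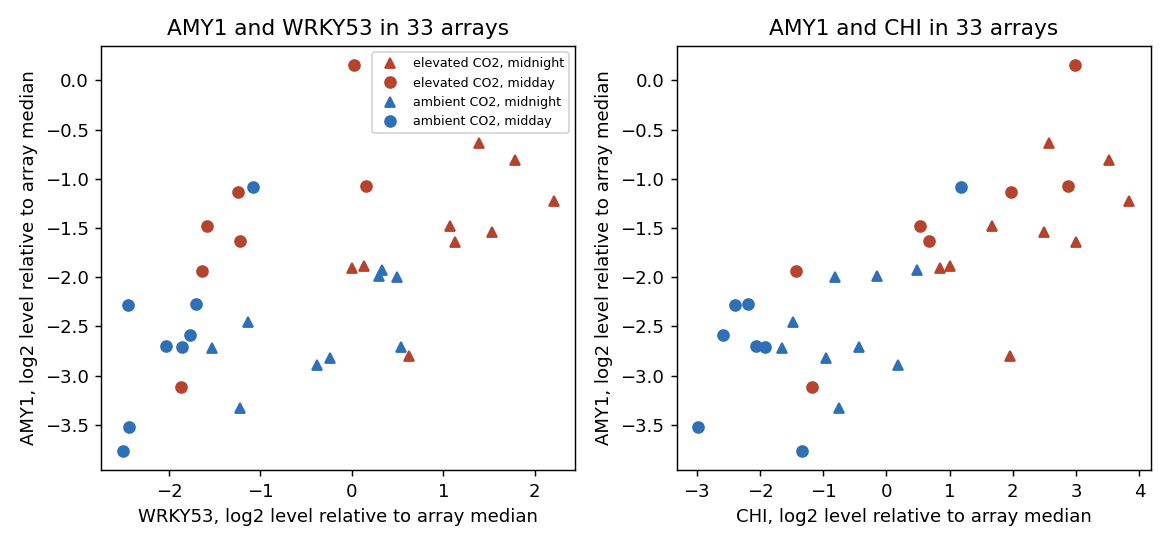
AMY1 (y axis) against WRKY53 and CHI (x axes), each as log2 level relative to the array median, in 33 arrays, with elevated CO2 in red and ambient CO2 in blue, and triangles for midnight and circles for midday. Over these values AMY1 had r = 0.76 with CHI and r = 0.56 with WRKY53, whose midnight arrays lie to the right. CHI had the highest r of the named genes in values. In deviations from the group means WRKY53 had the highest (0.668, against 0.635 for CHI).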

How the data were processed

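The deposited table holds 1 column of log2 values per array, and the median of each column is 0. Labelling used a 3′ IVT kit, according to the labels' protocols. No header states the log base, and log2 was read from the range (-8.13 to 7.44) and the steps between hybridisation controls, which were 4.5 between bioB and bioC, 2.21 between bioC and bioD and 1.7 between bioD and cre. The first step is far larger than the others and gives no support to that reading, on which every fold rests. How probes were summarised, corrected and filtered is not given here, and no detection calls were used. Centring hides any shift common to most genes. Of 12772 tested probe sets (54 Affymetrix controls were left out), 6898 name 1 gene, 272 name several and 5602 have no name here. Current symbols came from RefSeq's gene table (TAIR10.1), and each of the 3 genes had 1 probe set for its locus. Coordinates and sequences were not used.

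The 33 arrays were grouped by their labels and fitted together in limma 3.58.1 (R 4.3.3), with 8 group means, no block and differences averaged over 4 conditions. The threshold was a Benjamini-Hochberg adjusted p under 0.05 over all 12772 probe sets, and every adjusted p in the text is limma's. Intervals are 95% intervals of that fit, and the number of arrays limits their precision. The members and the gene lists were chosen with earlier results of these data known. Every measured starch gene is named, with the 4 single-gene probe sets that correlated best with each member. The fit was tested on simulated data. Other settings were quantile normalization, leaving out the 30% dimmest probe sets, fitting each time of day alone, the replicate number as a block, a trended and robust variance, array weights, the 3′ to 5′ ratio as a covariate, each array left out and, chosen after seeing the data, both arrays that stand apart left out.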

Additional observations from a re-analysis of the deposited data

Results flagged for a closer look

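APL3 in elevated limiting midday replicate 1 was at 2.02, with the other arrays of its group at 0.97 to 1.07. The gap to the nearest array was 0.907 of the group's whole range. It was the 1 array that stood apart so far among 28 groups of 4 or 5 arrays tested, for AMY1, PWD, APL3 and AT4G24450, and chance flags about 1 in 20 groups. The same array was the lowest of its group for AMY1, at -3.11.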

How the results depend on the processing

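Of the averaged differences and contrasts and the starch gene counts, 4 changed sign across the other settings, 2 counts moved and 175 did neither. With single arrays left out these were 16, 7 and 769. Some of the 769 crossed the threshold, as given below for APL3 and nitrogen. Differences in single conditions changed sign as well, as given below. The mean CO2 difference of AMY1 was 0.96 to 1.21 with single arrays left out, the mean time difference of PWD 2.17 to 2.26, that of APL3 -1.53 to -1.42, and the mean nitrogen difference of APL3 0.45 to 0.56. The mean time difference of AMY1, near 0, was 0.05 with quantile normalization, 0.07 with the replicate block and -0.13 to 0.12 with arrays left out. The mean CO2 difference of PWD was 0.05 with array weights and 0.02 without the 2 arrays that stand apart. Without these 2 arrays the CO2 by nitrogen contrast at midnight was -0.08 for AMY1 and 0.07 for PWD, and the nitrogen difference of PWD at midnight was 0.12 in elevated and 0.05 in ambient CO2. The midnight minus midday difference of AT4G24450 passed with quantile normalization (0.31, limma adjusted p = 0.0287), the replicate block (0.31, adjusted p = 0.0331), the 3′ to 5′ covariate (0.34, adjusted p = 0.0279) and without the 2 arrays (0.31, adjusted p = 0.0311), and its adjusted p was 0.0172 to 0.145 with single arrays left out. Of all 10 starch genes, the 3 chosen ones included, 4 were called higher at midnight with quantile normalization, against 2, and 0 at elevated CO2 without the dimmest probe sets, a filter that removes AMY1.

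With single arrays left out, these values changed sign. The CO2 by time contrast was -0.45 to 0.06 for AMY1 and -0.18 to 0.06 for AT4G24450, and the nitrogen by time contrast of AMY1 -0.06 to 0.40. The CO2 by nitrogen contrast was -0.01 to 0.21 for APL3 and -0.15 to 0.01 for PWD on average, -0.27 to 0.04 for PWD at midday, and at midnight -0.26 to 0.28 for AMY1, -0.16 to 0.15 for PWD and -0.19 to 0.16 for APL3. The midnight minus midday difference of AMY1 at limiting nitrogen was -0.02 to 0.66 in elevated and -0.42 to 0.13 in ambient CO2, and its nitrogen difference in elevated CO2 at midnight -0.01 to 0.53. For PWD the CO2 difference at limiting nitrogen and midday was -0.12 to 0.19, and the nitrogen difference at midnight -0.16 to 0.12 in elevated and -0.14 to 0.09 in ambient CO2. For APL3 the CO2 difference at midnight was -0.16 to 0.11 at limiting and -0.17 to 0.16 at ample nitrogen, and the nitrogen difference in ambient CO2 at midday -0.07 to 0.14. The cause was not tested. Of the 10 starch genes 0 to 1 were called higher at limiting nitrogen. The 1 is APL3, chosen with its values known, and it was not counted without elevated limiting midday replicate 1, elevated ample midday replicate 1 or 2, ambient limiting midday replicate 1 or 4, ambient ample midday replicate 2 or ambient limiting midnight replicate 1. Over all probe sets the nitrogen calls were 180, against 805 with array weights and 104 to 325 with arrays left out, and the nitrogen by time calls 13, against 2 with the replicate block, 37 with array weights and 1 to 16 with arrays left out.

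Equal replicate numbers do not mark shared plants in the labels, so the block is no paired test. The median r of their deviations was 0.013 over 106 pairs, against -0.001 over 369 pairs of unequal number. Pairs within and across times of day were pooled, so a relation within 1 time of day was not tested. No second probe set of a member exists to compare, and the time difference cannot be had from 1 time of day.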
